A study of Mus musculus with 14 samples.

Results

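The comparison described here is Il1rn-/- against wild type in the 6 RNA-seq libraries of set a, 3 of each genotype, out of 14 libraries in the series. They were chosen by the letter a at the end of the sample titles, which the labels do not explain, and the 8 libraries of set b were left out except where a value is set beside them. Both groups are regulatory T cells, sorted as CD4+Foxp3eGFP+ at postnatal day 35 from the lymph nodes of mice on the BALB/c background, so both carry the Foxp3 reporter and differ in the Il1rn genotype. The labels give Il1rn-/- as the genotype of the mouse and name no cell type to which the deletion is restricted. Libraries were made with Smart-Seq2, a full-length cDNA method for small inputs, from 50000 sorted cells. The labels do not tell whether each library is a separate animal, so p-values reflect the spread between libraries alone, which may be technical in part. In the wild-type group that spread includes the split by Y-linked transcripts described below.

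Il1rn encodes the IL-1 receptor antagonist, a secreted protein that occupies the signalling receptor IL1R1 and so keeps IL-1α and IL-1β from it. When IL-1 does bind, IL1R1 pairs with its accessory chain, recruits the adaptor MyD88 and activates NF-kB and MAP kinases, while the decoy receptor IL1R2 binds IL-1 without signalling. BALB/c mice without the antagonist are known for spontaneous arthritis. The series title concerns regulatory T cells that promote osteoclasts, the bone-resorbing cells whose differentiation is driven by RANKL, the product of Tnfsf11.

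Reads in the genes of the deposited table numbered 3019628 to 3756559 per library. The mean was 3298903 ± 255870 for wild type and 3510576 ± 221817 for Il1rn-/- (SD over 3 libraries each), an exact two-sided permutation p of 0.5 where 0.1 is the smallest that 3 against 3 can give. Rn45s, the precursor of ribosomal RNA, held 20.3% of them in wild-type 3-a and 28.3% to 38.4% in the other libraries of set a. The part of this composition in the differences below was not tested. Over the tested genes, which do not count as replicates, Pearson's r was 0.892 to 0.923 among the wild-type libraries, 0.923 to 0.939 among the Il1rn-/- libraries and 0.906 to 0.937 between the genotypes. Wild-type 3-a had an r of 0.892 and 0.894 with the other wild-type libraries and of 0.937 with Il1rn-/- 1-a. One split of the libraries runs across the wild-type group. Transcripts of the Y-linked genes Ddx3y, Eif2s3y, Kdm5d and Uty had 609 reads in all in wild-type 1-a and 808 in 2-a, and 0 in wild-type 3-a and in the 3 Il1rn-/- libraries. Xist, the RNA that silences 1 X chromosome in female cells, had 7 and 10 reads in wild-type 1-a and 2-a and 854 to 1435 in the other 4. Y-linked transcripts thus divide the wild-type group and were detected in no Il1rn-/- library. In set a only wild-type 3-a, a wild-type library without them, parts their presence from genotype. A result that separates wild-type 1-a and 2-a from the rest follows the Y-linked transcripts in these libraries, and its cause was not tested. Values without wild-type 3-a or with Y-linked transcripts as a covariate stand beside the gene groups where this split is seen. That covariate leaves wild-type 3-a as the only wild-type library of its kind, so its estimates rest on that library.

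The targeted gene could not check the genotype labels, because the genes analysed here do not include Il1rn. The markers of the sorted cells were present at similar levels in both genotypes. Levels are given as log2 CPM, the logarithm of the read count as scaled by the authors. The CPM of a library summed to 619210 to 943070 in set a, so the sums were not equal. Foxp3, the transcription factor that specifies regulatory T cells, stood at 9.06, 8.90 and 8.16 log2 CPM in the wild-type libraries, in order of their numbers here and throughout. In the Il1rn-/- libraries it stood at 8.78, 8.75 and 8.54. The groups overlapped, and the difference, Il1rn-/- minus wild type here and throughout, was -0.02 ± 0.24 (SE here and throughout) with a 95% confidence interval of -0.54 to 0.50. Cd4 differed by -0.01 ± 0.19, Cd3e of the T cell receptor complex by 0.06 ± 0.25, the IL-2 receptor subunit gene Il2ra by -0.09 ± 0.20 and the transcription factor gene Ikzf2, which encodes Helios, by 0.05 ± 0.24. All 23 genes of a Treg identity list were tested, with a median difference of 0.03, the same as the 0.03 over all tested genes. Their range was -0.53 for Ctla4, a checkpoint receptor that competes with CD28, to 0.27 for Swap70. Exons of Foxp3 overlap those of Ccdc22 on the opposite strand in the GENCODE M21 annotation, and the handling of strand is not given in the sources used here.

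Across the table no gene passed the threshold. A gene was tested where its CPM was over 1 in at least 3 of the 6 libraries, which kept 11103 of 14449 genes. Of these, 42 (0.378%) were over that level in the 3 libraries of 1 genotype only. At an adjusted p under 0.05 by limma 0 genes were higher and 0 lower in Il1rn-/-, the smallest adjusted p was 0.348, and limma voom on the recovered reads called 0. An unadjusted p under 0.05 was found for 487 genes (4.39%), 337 higher and 150 lower, or 69.2% higher. With each library centred on its median the split was 274 to 202, or 57.6% higher. The 3 Il1rn-/- libraries lay above all 3 wild-type libraries for 498 genes (4.49%) and below them for 386 (3.48%). A positive difference was found for 54.5% of tested genes. The median SE of a difference was 0.320, and 0.250 over the 5292 genes at a mean of 4 log2 CPM or more. The call of 0 depended on which library was in the fit. Without wild-type 3-a, 9 genes (0.0811%) were higher and 33 lower. Without Il1rn-/- 1-a, 36 were higher and 0 lower, and with Y-linked transcripts as a covariate 53 were higher and 0 lower. Of the 42 genes called without wild-type 3-a, 5 were among the 36 called without Il1rn-/- 1-a and 0 among the 53 called with the covariate.

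**Figure D1:**
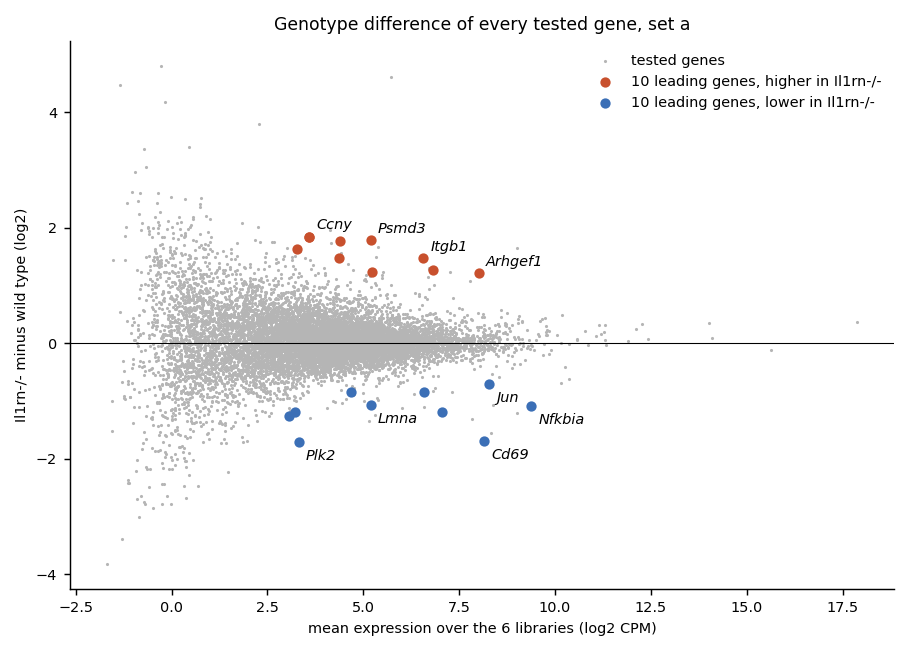
Difference between Il1rn-/- and wild type (log2, vertical) against mean expression over the 6 libraries (log2 CPM, horizontal) for each of the 11103 tested genes. Red and blue points are the 10 leading genes in each direction, with differences of 1.21 to 1.85 and -1.70 to -0.71, none of which passed the adjusted threshold.

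The leading genes, which did not pass, are those with the smallest unadjusted p among genes at a mean of 3 log2 CPM or more whose groups did not overlap. Because that rule asks for separated groups, the separation of these 20 genes is a description. The 10 leading genes on the higher side had adjusted p of 0.348 to 0.459 by limma, and their products serve in protein turnover, membrane traffic, adhesion and metabolism. Psmd3, which encodes a non-ATPase subunit of the proteasome's regulatory particle, stood at 4.34, 4.19 and 4.37 log2 CPM in wild type and at 5.26, 6.65 and 6.36 in Il1rn-/-. The 3 wild-type libraries lay close together, and Il1rn-/- 1-a lay between them and the other 2 Il1rn-/- libraries. The difference was 1.79 ± 0.31, or 3.45-fold. Plbd2, a gene of a lysosomal phospholipase B-like protein, was at 2.51, 2.62 and 2.87 against 3.60, 5.00 and 4.93, a difference of 1.84 ± 0.37. Its lowest Il1rn-/- library was again 1-a. Arhgef1, a guanine nucleotide exchange factor for RhoA in lymphocytes, was at 7.13, 7.35 and 7.74 against 8.20, 8.50 and 9.15. It differed by 1.21 ± 0.26. Without wild-type 3-a these genes differed by 1.82 (Psmd3, adjusted p 0.00915 by limma), 1.94 (Plbd2, 0.0308) and 1.38 (Arhgef1, 0.0104). Genotype and Y-linked transcripts cannot be told apart in that fit. Without Il1rn-/- 1-a these genes differed by 2.20, 2.30 and 1.42, each also past the threshold. That library was the Il1rn-/- library nearest wild type in each, so leaving it out had to widen the differences. With Y-linked transcripts as a covariate the differences were 1.72, 1.64 and 0.88, none past the threshold. Leaving out any other library gave 0 calls.

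Tmem214, which encodes a membrane protein of the endoplasmic reticulum, was at 4.24, 3.16 and 3.50 log2 CPM in wild type and 4.82, 5.37 and 5.14 in Il1rn-/-. Yipf4, a gene of a Golgi membrane protein, was at 4.28, 3.47 and 2.76 against 4.57, 5.43 and 5.81. In both genes wild-type 1-a came closest to the Il1rn-/- libraries. Ccny, which encodes the membrane-associated cyclin Y, was at 2.20, 2.78 and 3.00 against 3.52, 4.75 and 5.24, a difference of 1.85 ± 0.41 on 16 to 172 reads. Patz1, a zinc finger transcription factor gene, differed by 1.64 ± 0.37 on 22 to 99 reads. Ppp4c, the catalytic subunit of a serine/threonine phosphatase, was at 4.70, 4.32 and 4.77 against 5.19, 6.07 and 6.24, and Glud1, the mitochondrial glutamate dehydrogenase, at 6.85, 5.68 and 6.01 against 6.98, 7.79 and 7.56. The gap between the groups was narrow for Glud1, between wild-type 1-a and Il1rn-/- 1-a. Without Il1rn-/- 1-a, Ccny (2.34), Yipf4 (2.12) and Ppp4c (1.56) passed the threshold by limma, with adjusted p of 0.0103, 0.0313 and 0.0206, and Tmem214, Patz1 and Glud1 did not. In each of Ccny, Yipf4 and Ppp4c the library left out was the Il1rn-/- library nearest wild type. With Y-linked transcripts as a covariate Ccny differed by 1.51, Yipf4 by 2.51 and Ppp4c by 1.06. Ccny also passed without wild-type 3-a, at 2.02 (0.0410). Exons of Psmd3, Plbd2, Tmem214 and Patz1 overlap those of other annotated genes, so part of their reads could belong to a neighbour.

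Itgb1 was also among the 10 leading genes of the higher side, and the integrin genes Itgb7 and Itga4 come from the list of chemokine receptors and homing. Itgb1, the β1 subunit that pairs with α4 and other chains in adhesion to matrix and VCAM-1, was at 5.80, 6.32 and 5.33 log2 CPM in wild type and 6.61, 7.84 and 7.44 in Il1rn-/-, a difference of 1.48 ± 0.30 (adjusted p 0.459 by limma). Itgb7, the β7 subunit of the gut-homing integrin α4β7, was at 8.44, 8.28 and 7.83 against 8.55, 10.54 and 10.39, a difference of 1.65 ± 0.40 (adjusted p 0.502). Il1rn-/- 1-a lay close to the wild-type libraries and the other 2 Il1rn-/- libraries lay far above. Itga4, the α4 subunit that both chains share as a partner, was at 5.44, 6.31 and 6.30 against 6.99, 6.93 and 6.68, a difference of 0.85 ± 0.25 (adjusted p 0.666). Of 30 tested genes in the list of chemokine receptors and homing these were the 3 whose Il1rn-/- libraries all lay above wild type, beside 4.49% of all tested genes, and 0 lay below. The list as a whole was even, with 14 positive and 16 negative differences and a median of -0.01. Ccr7, the receptor that holds T cells in the lymph node, was at 8.87, 8.75 and 8.86 in wild type and 8.82, 7.90 and 8.02 in Il1rn-/-, so that Il1rn-/- 1-a again lay with wild type. Ccr7 differed by -0.58 ± 0.24 and Cxcr5, the receptor for the follicle chemokine CXCL13, by 0.64 ± 0.29. Ccr6, a receptor found on Th17 and other T cells, differed by -0.12 ± 0.24. Without Il1rn-/- 1-a the difference was 1.82 for Itgb1 (adjusted p 0.0103 by limma) and 2.29 for Itgb7 (0.00115), and without wild-type 3-a it was 1.24 (0.0722) and 1.47 (0.150).

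The 10 leading genes on the lower side had adjusted p of 0.459 to 0.798 by limma and include products of recent T cell activation and regulators of NF-kB. Cd69, a membrane protein that appears within hours of T cell activation and retains cells in lymphoid tissue, was at 9.79, 9.40 and 7.79 log2 CPM in wild type and 7.32, 7.39 and 7.18 in Il1rn-/-. Wild-type 1-a and 2-a stood apart from all others, and wild-type 3-a lay just above the Il1rn-/- libraries. The difference was -1.69 ± 0.37, or 3.24-fold. Nfkbia, the NF-kB inhibitor IκBα and itself an NF-kB target, was at 10.58, 9.95 and 9.26 against 8.71, 9.0 and 8.81, a difference of -1.09 ± 0.29. Nfkbiz, the nuclear IκBζ, was at 7.20, 7.30 and 6.50 against 6.18, 5.89 and 6.39, a difference of -0.84 ± 0.24. Jun, a subunit of the AP-1 transcription factor, was at 8.87, 8.82 and 8.23 against 7.93, 7.94 and 7.92, a difference of -0.71 ± 0.22. In each of these 4 genes wild-type 3-a was the lowest of the wild-type libraries.

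Tagap, a GTPase-activating protein gene of activated T cells, followed the same order, at 8.10, 8.21 and 6.61 against 6.57, 6.57 and 6.24. Plk2, a polo-like kinase gene, was at 4.82, 4.52 and 3.18 against 2.61, 2.64 and 2.16, and Lmna, which encodes lamins A and C, at 5.95, 5.97 and 5.27 against 4.75, 4.55 and 4.69. Wild-type 3-a did not stand apart in the other 3. Spryd4 was at 3.50, 3.93 and 3.65 against 2.61, 2.64 and 2.09, the kinase gene Nek8 at 3.91, 3.50 and 4.02 against 2.97, 2.64 and 2.23, and the mitochondrial protein gene Opa3 at 4.90, 5.36 and 5.07 against 4.50, 4.33 and 3.97. With Y-linked transcripts as a covariate the differences of these 3 were -1.21, -1.41 and -0.80, close to their values without it, and none passed. Those of Cd69, Nfkbia and Tagap were -0.49, -0.42 and -0.15 with the covariate. Without wild-type 3-a, Cd69 differed by -2.30 (adjusted p 8.08e-06 by limma), Tagap by -1.70 (0.000197), Nfkbia by -1.42 (0.00443) and Plk2 by -2.20 (0.00383), and Lmna, Nfkbiz and Jun also passed. Spryd4 shares exonic bases with Gls2 on the opposite strand.

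**Figure D2:**
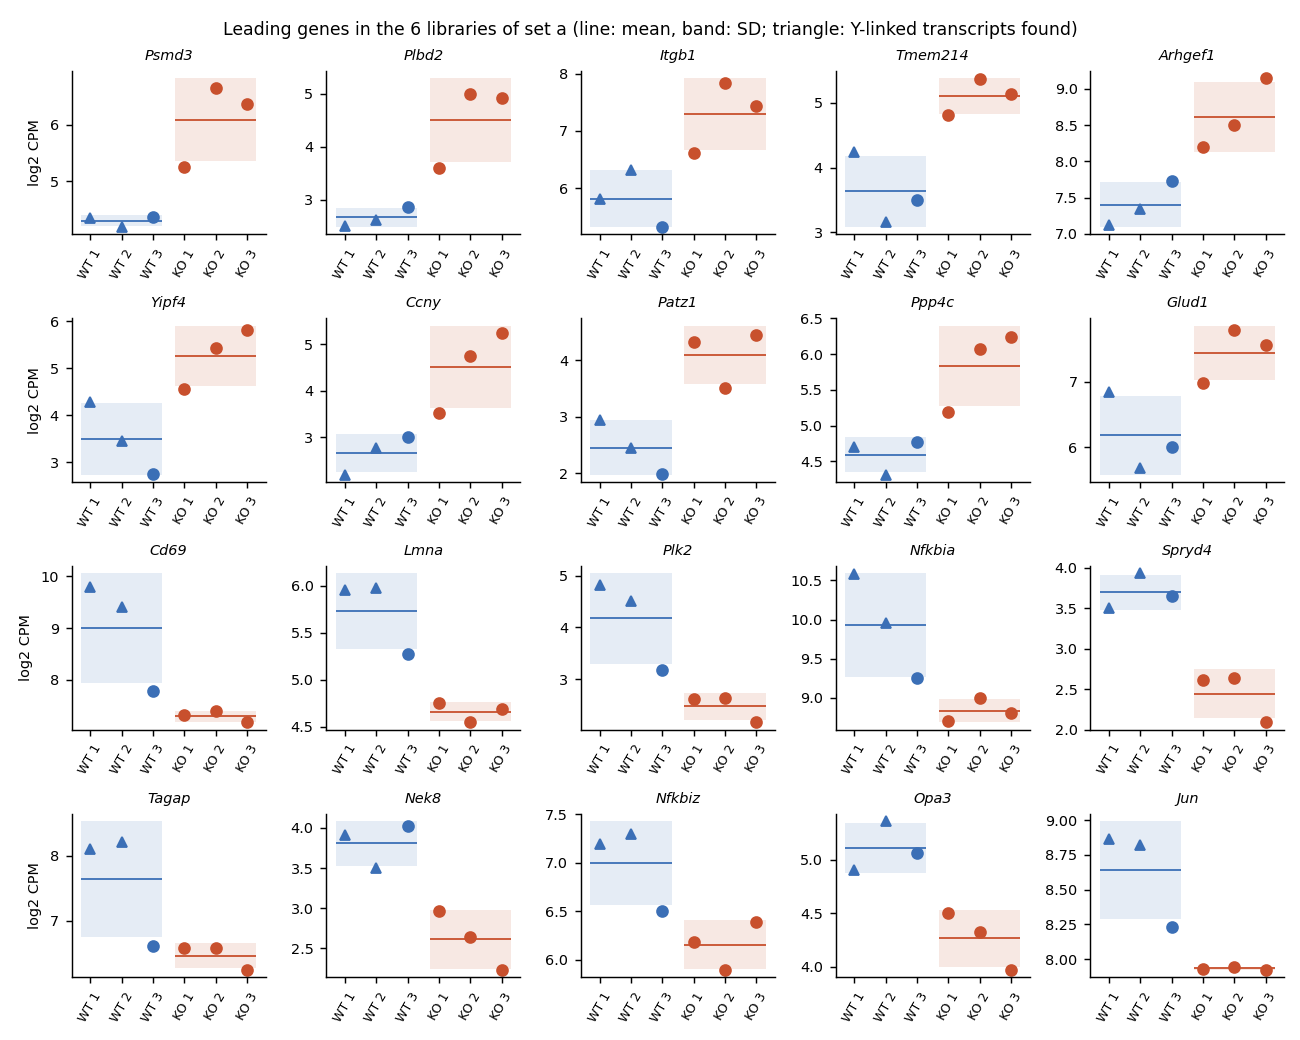
Expression (log2 CPM) of the 20 leading genes in the 6 libraries of set a, each panel with its own scale. Lines are group means, bands are SD (n = 3), and triangles mark wild-type 1-a and 2-a, which held Y-linked transcripts. In the panels of Cd69, Tagap and Plk2, wild-type 3-a lies near the Il1rn-/- libraries.

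Promoters of 4 genes from the interferon, NF-kB and heat shock lists are shown because each carries a motif of a factor known to act on genes of its list. Promoter sequences are from RefSeq (GRCm38.p6), 250 bases up to the start of the gene on the strand of transcription, with the match in capitals. The interferon-stimulated response element was searched as GAAA, 2 bases of any kind and GAAA, the heat shock element as 3 alternating units of GAA and TTC with 2 bases of any kind between units, and the kappa B site by its consensus, on both strands, and overlapping matches are joined. Stat2, which encodes a subunit of the factor that binds the interferon element, lies at chr10:128270248-128270497 on the plus strand. Socs1, a feedback inhibitor of cytokine receptors, lies at chr16:10785537-10785786 on the minus strand. Nfkbia lies at chr12:55492648-55492897 and Hspd1, the mitochondrial chaperonin gene, at chr1:55087933-55088182, both on the minus strand, and all 4 windows end at the base before the gene's start.
Stat2: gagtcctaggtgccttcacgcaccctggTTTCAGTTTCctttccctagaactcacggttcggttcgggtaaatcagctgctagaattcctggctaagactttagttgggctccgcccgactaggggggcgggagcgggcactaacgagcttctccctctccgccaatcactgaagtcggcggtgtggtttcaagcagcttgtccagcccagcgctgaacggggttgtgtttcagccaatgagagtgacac
Socs1: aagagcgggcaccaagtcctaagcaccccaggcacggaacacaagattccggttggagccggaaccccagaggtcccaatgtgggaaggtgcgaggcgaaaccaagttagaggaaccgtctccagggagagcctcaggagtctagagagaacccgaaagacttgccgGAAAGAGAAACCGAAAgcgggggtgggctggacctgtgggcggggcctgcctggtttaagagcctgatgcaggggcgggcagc
Nfkbia: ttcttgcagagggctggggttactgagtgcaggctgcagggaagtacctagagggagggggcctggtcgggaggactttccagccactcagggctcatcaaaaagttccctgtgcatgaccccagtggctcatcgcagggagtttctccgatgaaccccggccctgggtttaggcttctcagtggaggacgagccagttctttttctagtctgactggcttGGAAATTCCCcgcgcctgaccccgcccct
Hspd1: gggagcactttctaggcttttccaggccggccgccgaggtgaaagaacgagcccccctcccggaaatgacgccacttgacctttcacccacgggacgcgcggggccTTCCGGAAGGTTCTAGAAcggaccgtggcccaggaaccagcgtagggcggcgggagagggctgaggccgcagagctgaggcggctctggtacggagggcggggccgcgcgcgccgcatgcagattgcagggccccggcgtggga

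Of the 57 tested interferon-stimulated genes, 40 matched a promoter by symbol and 22 of these (55%) held the interferon element within the 250 bases. Among all 27025 genes with a promoter, tested here or not, the share was 3.46%. A gene was counted where any of its promoters held the motif. The heat shock element was found for 3 of 25 heat shock genes with a promoter (12%), beside 0.514% of all. The kappa B site was found for 8 of 22 NF-kB targets (36.4%), beside 5.67%. The CArG box bound by serum response factor was found for 3 of 21 immediate early genes (14.3%), beside 1.62%. A match is a run of letters and not a measured site.

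Interferon-stimulated genes lay on the higher side in Il1rn-/-. Of 57 tested genes 55 had a positive difference, beside 54.5% of all tested genes, with a median of 0.37 against 0.03 over all. Yet 0 passed the adjusted threshold, 8 had an unadjusted p under 0.05 and a positive difference beside 3.04% of all tested genes, and only in 4 did every Il1rn-/- library lie above wild type, beside 4.49%. The mean of the list was 4.66, 4.97 and 5.29 log2 CPM in wild type, against 4.90, 5.57 and 5.78 in Il1rn-/-. Wild-type 3-a thus lay above Il1rn-/- 1-a, and the groups overlapped. The median was 0.23 to 0.55 with each library left out in turn and 0.11 with Y-linked transcripts as a covariate, where 37 of 57 were positive beside 49% of all tested genes.

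Among its members, Mx1, a dynamin-like antiviral GTPase gene, had 3, 14 and 35 reads in wild type and 19, 55 and 58 in Il1rn-/-, a difference of 1.76 ± 0.64. Ly6a, which encodes the surface protein Sca-1, was at 4.71, 4.62 and 5.40 log2 CPM against 4.59, 6.77 and 6.76, a difference of 1.13 ± 0.44. Il1rn-/- 1-a was the lowest library of all for Ly6a and the other 2 the highest. Stat2 was at 5.69, 5.36 and 5.49 against 5.78, 5.88 and 6.34, without overlap, and differed by 0.49 ± 0.23. Irf7, which amplifies type I interferon, differed by 0.62 ± 0.27 and Socs1 by 0.71 ± 0.29. Slfn8 differed by 1.31 ± 0.54, with wild-type 1-a at 4.13 and the other 5 libraries at 6.79 to 7.71, and near-identical Slfn copies make its reads uncertain. Without Il1rn-/- 1-a, Ly6a differed by 1.85 (adjusted p 0.00791 by limma) and was the only member called. The genes with a difference under 0 were Irf1, at -0.19, and Gbp7, at -0.00.

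Immediate early genes, transcribed within minutes of a stimulus without new protein synthesis, lay on the lower side. Of 26 tested, 21 had a negative difference, beside 45.5% of all tested genes, and the median was -0.61. An unadjusted p under 0.05 with a negative difference was found for 12, beside 1.35% of all tested genes, and in 5 every Il1rn-/- library lay below wild type, beside 3.48%. None of the 26 passed the adjusted threshold. The mean of the list was 6.11 and 6.16 log2 CPM in wild-type 1-a and 2-a, 5.01 in wild-type 3-a, and between 4.90 and 5.49 in Il1rn-/-. Wild-type 3-a therefore lay within the range of Il1rn-/-, and the 2 libraries with Y-linked transcripts lay above it. Fos, the partner of Jun in AP-1, was at 9.61, 9.51 and 7.61 against 7.35, 8.17 and 8.03. Dusp1, a phosphatase that switches off MAP kinases, was at 10.38, 10.08 and 8.35 against 8.08, 8.70 and 8.43, and the transcription factor gene Klf6 at 9.03, 9.24 and 7.17 against 6.67, 7.59 and 7.24. In these 3 genes wild-type 1-a and 2-a stood about as far above wild-type 3-a as above Il1rn-/-. Without wild-type 3-a, Fos differed by -1.71 (adjusted p 0.00119 by limma), Dusp1 by -1.82 (0.000315) and Klf6 by -1.97 (0.000307), and with Y-linked transcripts as a covariate by 0.24, 0.0489 and -0.00192. Dusp2, another MAP kinase phosphatase gene, went the other way, at 4.15, 4.30 and 5.19 against 4.53, 6.68 and 7.42, a difference of 1.66 ± 0.52 (adjusted p 0.830 by limma), and by 2.50 without Il1rn-/- 1-a (0.00286).

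The heat shock and chaperone list had a similar order of libraries. Of 30 tested genes 25 had a negative difference, beside 45.5% of all tested genes, and the median was -0.36. An unadjusted p under 0.05 in that direction was found for 6, beside 1.35% of all tested genes. The list means were 6.47, 6.68 and 5.59 log2 CPM in wild type and 5.81, 6.01 and 5.92 in Il1rn-/-, with wild-type 3-a the lowest of the 6. Hsp90aa1, the stress-inducible HSP90, was at 6.07, 6.76 and 5.97 against 5.43, 5.59 and 5.57, and Hspd1 at 6.56, 6.65 and 5.88 against 5.70, 5.52 and 5.84, both without overlap. Hsph1, an HSP70 exchange factor gene, was at 7.99, 8.48 and 4.93 against 6.02, 6.26 and 5.79, so that wild type held both the highest and the lowest values. NF-kB targets were mixed, with 19 of 27 negative, beside 45.5%, and a median of -0.11. Of these targets 4 had an unadjusted p under 0.05 in that direction, beside 1.35% of all tested genes. Tnfaip3, the NF-kB feedback inhibitor A20, was at 10.45, 10.47 and 6.43 against 6.69, 8.32 and 7.67, so that wild-type 3-a lay below every Il1rn-/- library. Without wild-type 3-a, limma called 8 of the 26 immediate early genes, 5 of the 30 heat shock genes and 4 of the 27 NF-kB targets lower, beside 0.297% of all tested genes, and the medians were -1.09, -0.58 and -0.10. With Y-linked transcripts as a covariate 0 of each were called, and the medians were 0.08, 0.17 and -0.01.

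**Figure D3:**
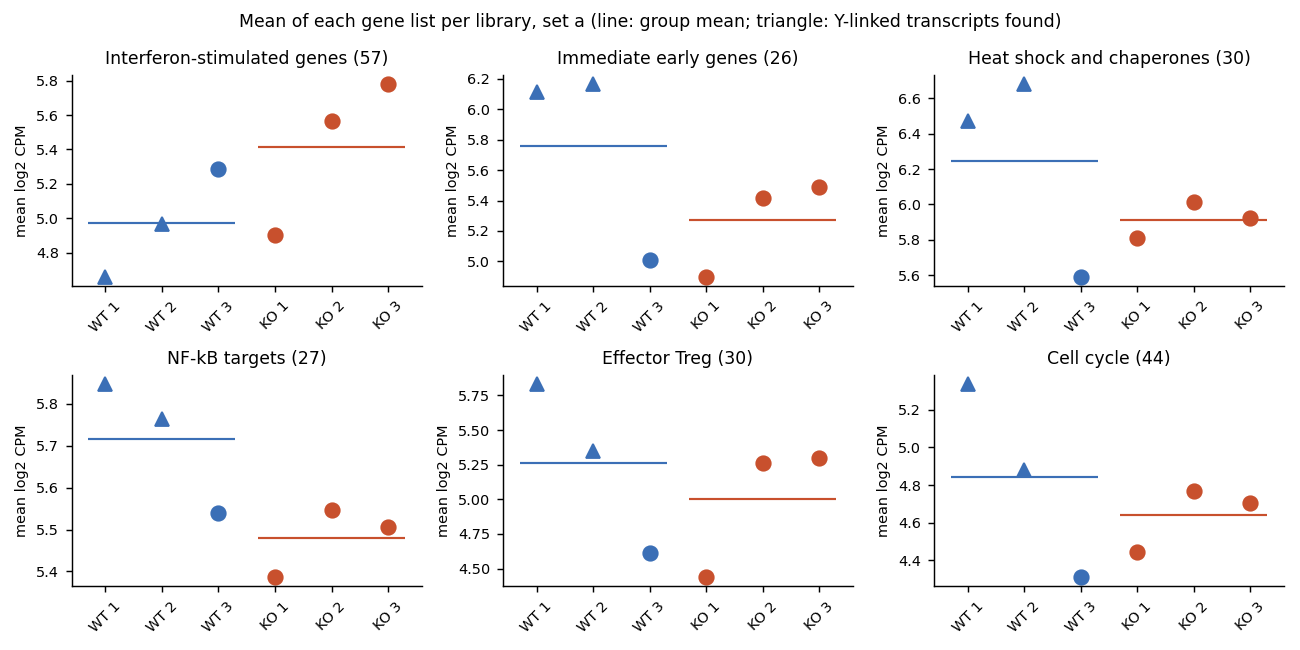
Mean log2 CPM of 6 gene lists in each library of set a, with the number of tested genes in brackets. Lines are group means and triangles mark the libraries with Y-linked transcripts. For immediate early genes and heat shock genes wild-type 1-a and 2-a lie above the other 4 libraries, at 6.11 and 6.16 and at 6.47 and 6.68.

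The IL-1 pathway itself showed little. Il1r1, the signalling receptor, had 25, 9 and 0 reads in wild type and 0, 5 and 6 in Il1rn-/-, so a difference was not detectable at this depth. The decoy receptor gene Il1r2 was well expressed, at 6.02, 5.89 and 5.65 log2 CPM against 5.27, 6.21 and 5.58. It differed by -0.16 ± 0.25, with an interval of -0.70 to 0.37. The accessory chain gene Il1rap differed by -0.10 ± 0.40, the IL-33 receptor gene Il1rl1 by -0.48 ± 0.36 and the IL-18 receptor gene Il18r1 by -0.50 ± 0.30. Il18 itself had 7, 4 and 10 reads in wild type and 0, 3 and 1 in Il1rn-/-. Of 9 tested receptors and ligands of the family 8 had a negative difference, beside 45.5% of all tested genes. The median was -0.16, and 0 had an unadjusted p under 0.05. The list means were 3.86, 3.58 and 2.84 log2 CPM in wild type and 2.19, 3.26 and 3.22 in Il1rn-/-. Wild-type 3-a thus lay within the range of Il1rn-/-. Without that library the median was -0.57. With Y-linked transcripts as a covariate it was 0.04, with 5 of 9 positive beside 49% of all tested genes. Downstream, the adaptor gene Myd88 differed by -0.14 ± 0.22. In the signalling chain 11 of 23 genes had a positive difference, beside 54.5% of all tested genes, with a median of -0.03. The exception in size was Peli1, an E3 ubiquitin ligase that acts on IRAK kinases, at 5.87, 6.46 and 5.84 against 6.51, 7.71 and 7.84. Its groups were separated, by a small gap at Il1rn-/- 1-a, and its difference was 1.29 ± 0.31 (adjusted p 0.499 by limma), or 1.71 without Il1rn-/- 1-a (0.00751). Casp1, the inflammasome protease that cleaves pro-IL-1β, was at 4.01, 4.75 and 4.54 against 4.07, 5.05 and 5.10, a difference of 0.31 ± 0.31.

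Of the factors that act on osteoclasts, Tnfsf11 had 17, 19 and 30 reads in wild type and 10, 54 and 76 in Il1rn-/-, or 2.28, 2.17 and 2.42 log2 CPM against 1.16, 3.80 and 4.07. Il1rn-/- 1-a was the lowest of the 6 libraries and the other 2 were the highest. The difference was 0.71 ± 0.60, with a 95% confidence interval of -0.56 to 1.99 (adjusted p 1.00 by limma), and 1.64 without Il1rn-/- 1-a (adjusted p 0.154). Without wild-type 3-a the difference was 0.78 (adjusted p 0.748 by limma), and with Y-linked transcripts as a covariate it was 0.59. Csf1, the growth factor of osteoclast precursors, was at 4.91, 4.83 and 3.63 against 3.32, 4.45 and 3.95, a difference of -0.56 ± 0.37. Among the factors that restrain osteoclasts, the cytokine gene Il10 had 65, 43 and 8 reads against 4, 11 and 24, a difference of -1.41 ± 0.80. Wild-type 1-a and 2-a were high for Il10 and wild-type 3-a lay within the range of Il1rn-/-. Its difference was -2.48 without wild-type 3-a (adjusted p 0.110 by limma) and 0.71 with the covariate. Of 6 tested promoting factors 3 were positive and 3 negative. Of 8 tested restraining factors, which include Ctla4, Il10 and Il18, 6 were negative, beside 45.5% of all tested genes. Their median was -0.27 and turned to 0.13 with the covariate, where 5 of 8 were positive beside 49% of all tested genes. The genes analysed here do not include Il17a.

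Genes of effector regulatory T cells had a negative difference in 22 of 30, beside 45.5% of all tested genes, with a median of -0.23. Their list means were 5.83, 5.35 and 4.61 log2 CPM in wild type and 4.44, 5.26 and 5.30 in Il1rn-/-, so wild-type 3-a and Il1rn-/- 1-a were the lowest libraries of their groups. Without wild-type 3-a the median was -0.54 and without Il1rn-/- 1-a it was 0.00. With Y-linked transcripts as a covariate it turned to 0.36, with 23 of 30 positive beside 49% of all tested genes. Areg, a tissue repair growth factor, had 83, 55 and 5 reads in wild type and 3, 15 and 13 in Il1rn-/-. Pdcd1, which encodes the inhibitory receptor PD-1, was at 5.75, 4.74 and 5.76 against 5.96, 6.66 and 6.15, a difference of 0.84 ± 0.29 without overlap, and Anxa2, a membrane-binding annexin gene, at 6.72, 6.08 and 6.16 against 5.75, 5.88 and 5.66, a difference of -0.55 ± 0.22. Among genes of naive and central T cells Igfbp4 differed by -1.13 ± 0.30 and Id3, an inhibitor of E proteins, by 0.84 ± 0.38. Id3 stood at 4.26 and 4.63 in wild-type 1-a and 2-a and at 5.61 to 6.28 in the other 4 libraries. Without wild-type 3-a, Areg differed by -3.10 (adjusted p 0.0318 by limma), Igfbp4 by -1.49 (0.00474) and Id3 by 1.41 (0.0119). The 44 cell cycle genes were negative in 38, beside 45.5% of all tested genes, with a median of -0.22 and 0 at an unadjusted p under 0.05. That direction rested on wild-type 1-a, since without it the median was 0.02 with 23 of 44 positive. The median was -0.50 without wild-type 3-a and 0.23 with the covariate, where 33 were positive beside 49% of all tested genes. Top2a, the topoisomerase of dividing cells, was at 7.85, 7.42 and 6.41 against 6.27, 6.93 and 6.77, so wild-type 3-a lay within the range of Il1rn-/-. Its difference was -0.57, -0.98 without wild-type 3-a (adjusted p 0.0740 by limma) and 0.25 with the covariate. The replication genes Ccna2 and Mcm3 differed by -0.50 ± 0.30 and -0.43 ± 0.27.

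Receptor signalling and metabolism had list medians near 0 with single genes away from it. The 34 genes of T cell receptor signalling had a median of 0.00, and Rasgrp1, the Ras activator of thymocytes and T cells, was at 7.11, 7.35 and 6.43 against 7.59, 7.66 and 7.97, a difference of 0.78 ± 0.24 without overlap. Malt1, the paracaspase that links the receptor to NF-kB, differed by 0.79 ± 0.28. In the TGF-beta pathway, with a median of 0.02 over 17 genes, the receptor gene Tgfbr2 was at 6.27, 6.52 and 5.86 against 6.55, 7.35 and 7.18, and differed by 0.81 ± 0.25. Smad7, the inhibitory SMAD, lay on the other side, at 4.60, 5.25 and 4.66 against 3.79, 4.02 and 4.26, a difference of -0.81 ± 0.27. The corepressor gene Tgif1 differed by -0.95 ± 0.32, with wild-type 3-a near Il1rn-/-, and by -1.40 without that library (adjusted p 0.00446 by limma). Oxidative phosphorylation had a median of 0.06 over 52 genes, and single libraries turned its direction. It was -0.16 with 7 of 52 positive without wild-type 2-a, 0.19 with 40 positive without wild-type 3-a (beside 53.3% of all tested genes) and -0.20 with 7 positive with the covariate (beside 49%). Glycolysis had a median of 0.03 over 27 genes, 0.21 without wild-type 1-a, -0.01 without wild-type 3-a and 0.29 with the covariate. In mitochondrial genome maintenance, with a median of 0.06 over 21 genes, the polymerase gene Polg differed by 0.56 ± 0.24 and its accessory subunit gene Polg2 by -0.72 ± 0.30. The protease gene Afg3l2 was at 5.14, 5.30 and 4.43 against 5.71, 5.76 and 5.40, a difference of 0.67 ± 0.26. Kdm6a, an X-linked histone demethylase gene whose Y-linked homologue is Uty, was at 4.87, 5.41 and 5.63 against 5.92, 6.08 and 5.97, with the libraries that held Y-linked transcripts lowest.

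**Figure D4:**
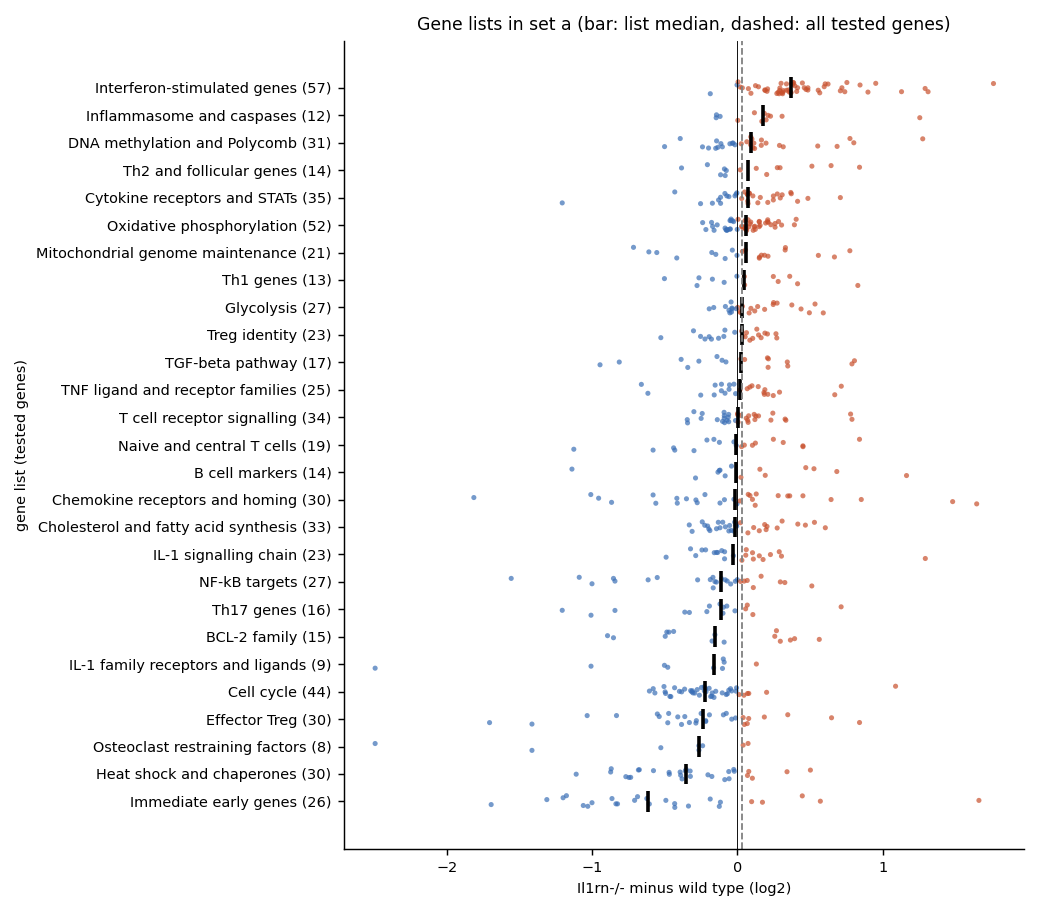
Differences between Il1rn-/- and wild type (log2, horizontal) for the tested genes of each list with at least 8 of them, in order of the list median (black bar). The dashed line is the median of all tested genes, 0.03. Interferon-stimulated genes have the highest median, 0.37, and immediate early genes the lowest, -0.61.

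Markers of other cells of the lymph node were found at differing levels. In these sorted bulk samples fewer cells of a type and less RNA per cell cannot be told apart. B cell genes were present in every library, with Ms4a1, which encodes CD20, at 21 to 54 reads and Cd74, the invariant chain of MHC class II, at 117 to 387. The summed CPM of 16 B cell genes was 109 to 270 in wild type and 162 to 237 in Il1rn-/-. Of the 14 tested, 7 had a positive difference, beside 54.5% of all tested genes. Cd22, a B cell lectin gene, had 60, 65 and 7 reads in wild type and 48, 108 and 60 in Il1rn-/-, and 1 library decided its value. Its difference was 1.16 ± 0.72, -0.04 without wild-type 3-a and 3.57 with Y-linked transcripts as a covariate (adjusted p 0.00885 by limma). Cd8a had 11 to 48 reads. Of the stromal and endothelial markers, Pecam1, which naive T cells also express, was the 1 that passed the filter, with 266 to 586 reads and a difference of -0.10. The summed CPM of that list was 76.5 to 106 in wild type and 64.8 to 107 in Il1rn-/-. The macrophage genes C1qb and C1qc were at 0 in 5 of the 6 libraries and Fcgr1 in 5. Lyz2, with 6 to 81 reads, Itgam, with 1 to 16, and Cd68, with 2 to 10, were found in every library. Ccr2 and Ctss, which T cells also express, had 197 to 582 and 537 to 1395 reads. All 5 tested genes of the monocyte and macrophage list had a negative difference, beside 45.5% of all tested genes. Their median was -0.41, with 0 at an unadjusted p under 0.05 by limma. The part of these cells in the differences above was not tested.

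The genes called with a library left out or with the covariate were set beside the whole comparison because they differ from one another. Without Il1rn-/- 1-a the 36 genes on the higher side, 0.324% of those tested, included Psmd3, Itgb7, Peli1, Ly6a and Dusp2. In each of these named genes the library left out was the lowest of the Il1rn-/- libraries. Without wild-type 3-a the call with the smallest adjusted p was Xist, at 6.88 (4.38e-12 by limma), followed by Cd69, Hsph1, Bhlhe40 and Tnfaip3 on the lower side. With Y-linked transcripts as a covariate, Stag2, a cohesin subunit gene, led the 53 calls (0.477%) with a difference of 1.88. Stag2 was at 7.14, 6.93 and 4.86 log2 CPM in wild type and 6.65, 6.82 and 6.74 in Il1rn-/-, so wild-type 3-a alone stood apart. Itgb1, Yipf4 and Rasgrp1 were also called with the covariate, at 1.97, 2.51 and 1.31. For these genes too wild-type 3-a was the lowest library.

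The 8 libraries of set b hold the same contrast, with 4 of each genotype, and there the split by Y-linked transcripts runs the other way. They were found in Il1rn-/- 3-b and 4-b, with 374 and 503 reads, and in no wild-type library of that set, where 2 reads were the most. None of the 10 leading genes of the higher side had a positive difference in set b, where they ranged from -1.37 to -0.38, beside 50.8% of all genes positive in set a. Psmd3 differed by -0.99 ± 0.46 there and Itgb1 by -0.38 ± 0.34. On the lower side 1 of 10, Spryd4, had a negative difference in set b, beside 39.8%. Cd69 differed by 1.82 ± 0.60, Jun by 1.85 ± 0.67 and Nfkbia by 1.27 ± 0.56. Without Il1rn-/- 3-b and 4-b, which left 2 Il1rn-/- libraries in set b, 7 of the 10 higher genes were positive, beside 52.6%, and 6 of the 10 lower genes negative, beside 46%. Cd69 then differed by 0.23 ± 0.17, Psmd3 by 0.04 ± 0.24 and Itgb1 by 0.30 ± 0.20. The 10 higher genes then ranged from -0.12 (Yipf4) to 0.37 (Tmem214), against 1.21 to 1.85 in set a. For immediate early genes the list mean was 6.64 and 6.38 log2 CPM in Il1rn-/- 3-b and 4-b and 4.49 to 4.85 in the other 6 libraries of set b. In both sets the libraries with Y-linked transcripts were the highest for this list. Il1rn-/- 3-b and 4-b also stood apart in RNA composition. Rn45s held 36.2% and 40.0% of their reads and 59.6% to 65.8% in the other 6 libraries of set b, and the mitochondrial ribosomal RNA mt-Rnr2 held 16.2% and 9.81% of the remaining reads against 2.82% to 4.01%. The part of this composition in the list was not tested. The median of immediate early genes was 0.74 in set b, and without these 2 libraries it was -0.23 with 4 of 25 positive, beside 53.4% of all tested genes. That is the sign of set a without the covariate, with which the median of set a was 0.08. Without these 2 libraries heat shock genes had a median of 0.10 and cell cycle genes of 0.14, opposite in sign to set a. NF-kB targets had -0.06 and effector Treg genes -0.01.

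The difference between the sets was tested directly, in a model of 4 groups over the 14 libraries. By limma 0 of 12329 genes passed the adjusted threshold, 968 (7.85%) reached an unadjusted p under 0.05, and the smallest adjusted p was 0.610. The genes named for this comparison were Yipf4, at 1.77 ± 0.38 in set a and -0.80 ± 0.38 in set b, Chmp7, an ESCRT-III gene of nuclear envelope repair, at 1.60 ± 0.40 and -1.11 ± 0.38, Socs5, a suppressor of cytokine signalling, at 1.03 ± 0.29 and -0.59 ± 0.25, and the glycosyltransferase gene B3gnt2, at 1.15 ± 0.31 and -0.61 ± 0.28. They were chosen by the smallest unadjusted p for this difference, so their opposite signs in the sets follow largely from the choice. The median of interferon-stimulated genes was positive in both sets, 0.37 in set a and 0.25 in set b, where 36 of 58 were positive beside 53.7% of all tested genes. In set b without Il1rn-/- 3-b and 4-b it was 0.11, with 32 of 57 positive beside 53.4%, which is near the share over all genes.

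**Figure D5:**
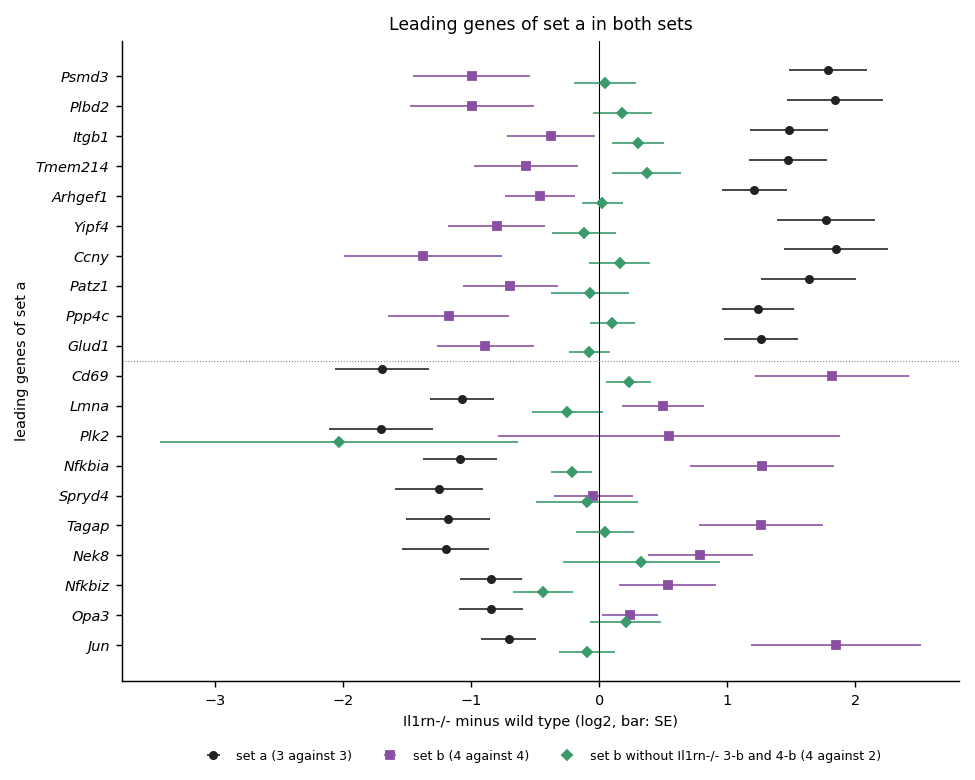
Difference between Il1rn-/- and wild type (log2, with SE) of the 20 leading genes in set a, in set b and in set b without the 2 libraries that held Y-linked transcripts. The values of set b lie on the other side of 0 from set a for 19 of 20 genes.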

How the data were processed

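RNA of sorted CD4+Foxp3eGFP+ lymph node cells was analysed from 6 libraries, 3 wild-type and 3 Il1rn-/-, grouped by genotype and by the letter a of the sample titles. Smart-Seq2 libraries from Qiagen RNeasy Micro extracts were quantified, per the labels' protocols, by Cuffquant 2.2.1. Cuffnorm, Cufflinks 2.2.1, TopHat2 2.0.10 and BWA are named in the submitters' processing notes. Not given in the sources used here are the genome build, the strand setting, the treatment of shared reads and the tool behind the deposited values.

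The authors deposited log2 CPM values in 1 table of 14449 genes, 165 without a symbol. The floor of -3.58 stands for 0 reads, and the even steps above it gave back whole reads (100% of values within 0.001 of a whole number). Recovered reads gave depth, reads of single genes and limma voom. Depth was 3019628 to 3756559 reads per library, without molecular identifiers, so counting precision covers reads and not molecules. Genes with CPM over 1 in 3 or more of the 6 libraries were tested with limma 3.58.1 (R 4.3.3, intensity trend, two-sided, Benjamini-Hochberg, threshold 0.05) on the log2 values. Set b and the difference between sets came from a 4-group model over 14 libraries. The filter and the limma fit of set a were checked on simulated reads whose spread between libraries was capped, and the other steps were not simulated. Figures used matplotlib 3.10.9.

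The members and the 36 gene lists were chosen with earlier results of these data known. Named genes were those of interest for the design (Tnfsf11, Il1rn, Casp1, Myd88, Foxp3, Ikzf2, Ctla4, Il2ra, Il1r1, Il1r2, Il1rap, Il1rl1, Il17a, Ccr6 and 1 gene not reported here), 10 leading genes per direction, up to 3 genes per list and up to 4 for the difference between sets. Chosen after their values were seen were Tnfaip3, Hsph1, Dusp1, Klf6, Fos, Bhlhe40, Stag2, Irf7, Areg, Irf1 and Gbp7. Alternatives covered the filter, prior count, scaling, variance model, library weights, a replicate block, the 14-library model, Y-linked transcripts as a covariate (at least 20 reads) and each library left out. Set b without Il1rn-/- 3-b and 4-b, and each of the 14 libraries left out for the difference between sets, were added after seeing the data.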

Additional observations from a re-analysis of the deposited data

How the results depend on the processing

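The count of 0 genes higher and 0 lower at an adjusted p under 0.05 by limma held with a CPM filter of 4, a prior count of 2, 3 other scalings, robust empirical Bayes, limma voom and the 14-library model. It moved to 4 higher and 5 lower with no filter, 2 and 1 with library weights, 1 higher with the replicate block and 1 lower without the intensity trend. With Y-linked transcripts as a covariate 53 were higher. Leaving out each library in turn gave 0 to 36 higher and 0 to 33 lower, with calls only without wild-type 3-a (9 and 33) or Il1rn-/- 1-a (36 and 0). The replicate numbers did not pair the libraries (correlations of deviations of -0.21, -0.04 and -0.09), and the gene called with the block was Xist. The difference between sets gave 2 calls without the intensity trend and 0 otherwise. The cause of these moves was not tested.

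Some differences close to 0 or led by wild-type 1-a and 2-a changed sign. With Y-linked transcripts as a covariate they were Foxp3 0.53, Ctla4 0.0983, Il1r1 2.70, Il1r2 0.0353, Il1rap 0.85, Il1rl1 0.15, Id3 -0.31, Gadd45b 0.13, Csf1 0.27, Il10 0.71, Dnaja1 0.18, Top2a 0.25, Ccna2 0.12, Mcm3 0.0958, Cd4 0.0789, Tnfaip3 1.13, Hsph1 1.09, Dusp1 0.0489, Fos 0.24, Bhlhe40 0.37, Areg 1.08. Over the libraries left out in turn the ranges were Foxp3 -0.29 to 0.16, Il2ra -0.22 to 0.0198, Ikzf2 -0.13 to 0.23, Il1r1 -2.86 to 0.35, Il1r2 -0.42 to 0.0433, Il1rap -0.57 to 0.17, Ccr6 -0.36 to 0.0867, Cd22 -0.0405 to 1.80, Cd4 -0.0592 to 0.0391, Cd3e -0.15 to 0.29, Stag2 -0.29 to 0.84. Centring moved Ikzf2 to -0.00545 and voom moved Il1rap to 0.00533. Precision is limited by 3 libraries per group, and for genes with few reads by depth.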
